A study of Mus musculus with 20 samples.

Results

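Complex I of the mitochondrial respiratory chain was followed through the genes whose symbols start with Nduf. All 46 protein-coding mouse genes with such a symbol had a row in the table of 56941 rows, and all 46 were among the 16778 genes that passed the filter on low counts. They comprised 7 nuclear core subunits, 29 accessory subunits, 8 assembly factors named Ndufaf, and Ndufa4 with its paralogue Ndufa4l2. RNA came from the whole soleus muscle of C57BL/6J mice, in 10 libraries of a control group and 10 of a group that the labels call space. Space mice underwent hind-limb unloading for 14 days, received ionizing radiation, and were given a stress hormone through the diet, whereas control mice were sham-irradiated and kept under like conditions. The 3 exposures were given together, so their effects cannot be told apart. Unloading stands for lost weight bearing, no age or sex is given, and the labels say of the replicates only that each group had 10 mice. The p-values therefore measure the spread between these 20 samples.

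Complex I, or NADH:ubiquinone oxidoreductase, takes electrons from NADH, passes them along iron-sulfur clusters to ubiquinone, and pumps protons out of the mitochondrial matrix. It has a matrix arm, made of an N module that oxidises NADH and a Q module that reduces ubiquinone, and a membrane arm, whose core subunits are encoded in mitochondrial DNA and whose accessory subunits are nuclear. Accessory subunits stabilise the enzyme, and assembly factors help to build it without staying in it. The soleus is a postural muscle rich in slow, oxidative fibres, and slow fibre markers were abundant in the control libraries (Myh7 averaged 10183 CPM, where CPM is a gene's count as a share of its scaled library total, in parts per 1000000).

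Of the 46 genes, 44 were lower in the space group, none was higher, and 2 (Ndufb4 and Ndufaf2) did not pass the test. The test was edgeR's quasi-likelihood test with adjustment over all tested genes at 0.05. By the same rule 28.9% of all tested genes were lower and 28.7% were higher, or 57.6% in either direction. The members' median log2 fold change was -0.485, a 1.40-fold lower level, beside 0.023 for all tested genes. For 32 members every space library lay below every control library, which held for 11.0% of all tested genes, and 13 were lower by more than 1.5-fold, against 9.0%. In a bulk sample, fewer cells of a type and less RNA per cell cannot be told apart.

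The medians of the 3 roles had the same direction, with those of core and accessory subunits close together and that of the Ndufaf genes smaller. All 7 core subunits were lower (median 1.44-fold), 28 of 29 accessory subunits were lower (median 1.41-fold), and 7 of 8 Ndufaf genes were lower (median 1.28-fold). Past 1.5-fold were 2 core subunits, 10 accessory subunits and 1 Ndufaf gene. Against a fold of at least 1.2, 30 of the 46 were lower, beside 14.8% of all tested genes. These 30 included 6 core subunits, 19 accessory subunits and 3 Ndufaf genes. A count of this kind also depends on the spread between libraries, not only on the size of a change. The SD as a share of the mean in control libraries had a median of 3.49% (core), 5.32% (accessory) and 8.88% (Ndufaf). No test was made over whole lists, and the roles are described by these counts and medians.

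**Figure D1:**
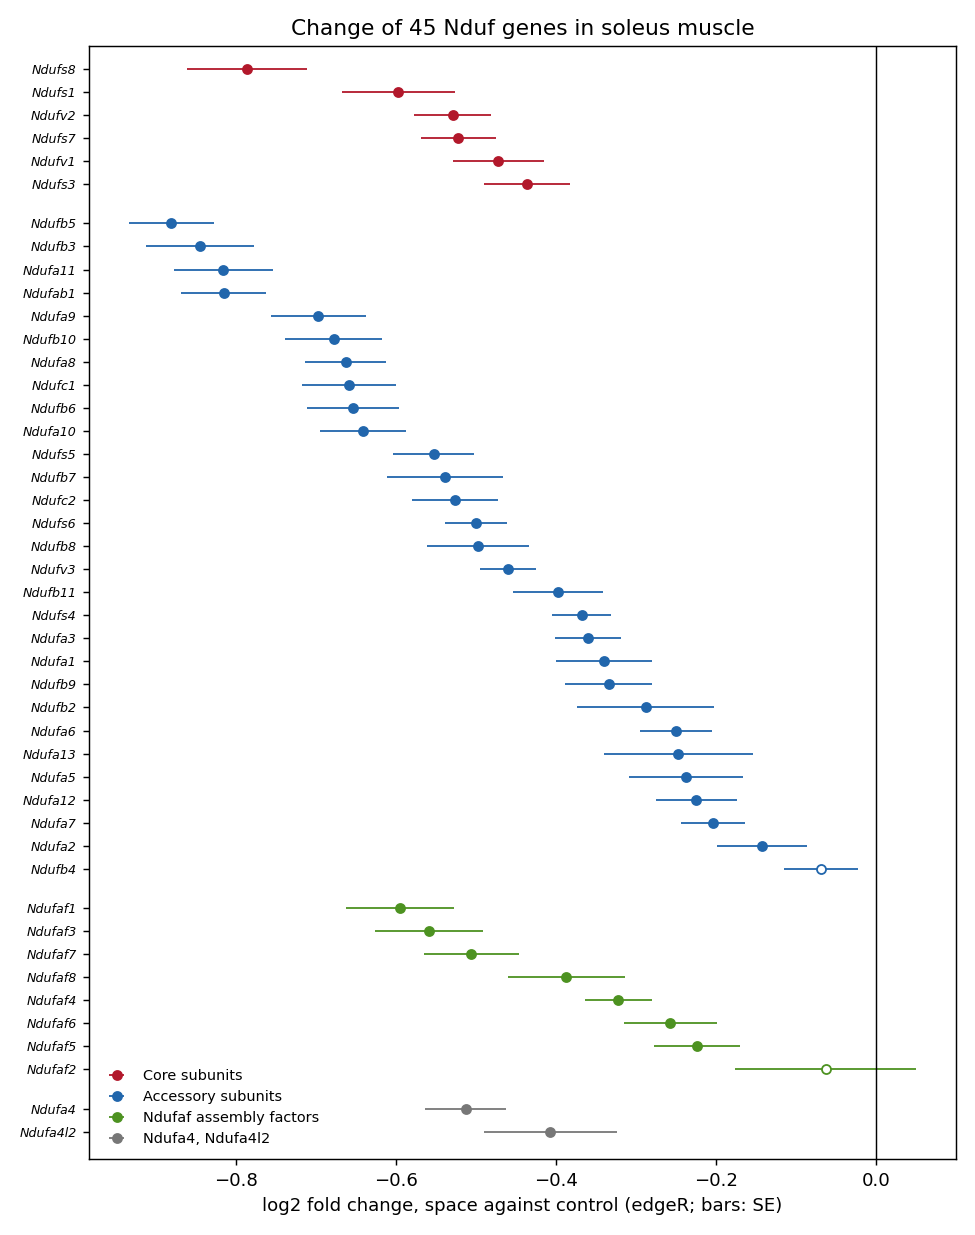
Log2 fold change of 45 of the 46 genes, space against control, grouped by role (points: edgeR estimate; bars: SE; open points: adjusted p not under 0.05). All 45 points lie left of 0, from -0.881 for Ndufb5 to -0.063 for Ndufaf2, and only Ndufb4 and Ndufaf2 are open.

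Space replicates 1 to 4 stood apart from the other libraries in RNA of nerve markers. All 10 Schwann cell and nerve markers were higher in the space group, and none was at 0 in any library. Their summed level was 519 to 1505 CPM in space replicates 1 to 4, 95.2 to 184 CPM in space replicates 5 to 10, and 95.9 to 194 CPM in control libraries. Without those 4 libraries, 3 of the 10 markers were higher and 1 was lower. These 4 libraries are samples picked out by these markers, not a group of the study, and the part of nerve RNA in the Nduf values was not tested. Summed adipocyte markers were 70.5 to 169 CPM in them, 9.72 to 68.1 CPM in space replicates 5 to 10 and 11.0 to 87.2 CPM in control libraries, and none of these 4 markers passed the test. The Nduf result was present in both sets: the distance of log2 CPM from the control mean, as a median over members, was -0.664 to -0.569 in space replicates 1 to 4, -0.429 to -0.314 in space replicates 5 to 10, and -0.044 to 0.052 in control libraries. With replicates 1 to 4 left out, 39 of 46 members were still lower, where 26.1% of tested genes were lower and 25.2% higher. Their median was then -0.413. By role, the medians were -0.422 (core), -0.412 (accessory) and -0.315 (Ndufaf), beside -0.522, -0.497 and -0.354 with all libraries. The roles thus lay closer together without those 4 libraries.

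Fibre type markers also moved. All 6 slow fibre markers were lower and all 6 fast fibre markers were higher, with Myh7 going from 10183 to 4650 CPM and Myh4, the fast myosin of type IIB fibres, from 647 to 13538 CPM. Summed slow markers were 19561 to 27066 CPM in control and 7428 to 15826 CPM in space libraries, and summed fast markers were 12409 to 18730 against 47865 to 61883 CPM. No marker of either list was at 0. Of other cell types, 3 of 6 endothelial markers were lower and 1 of 6 macrophage markers was higher. Of 4 fibroblast markers, 2 were lower and 2 higher, and none of 3 erythroid markers passed. Such counts stand beside 28.9% lower and 28.7% higher over all tested genes. The part of fibre types and of other cell types in the Nduf values was not tested.

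Promoter letters are given here for genes that the values below turn on. RefSeq windows on GRCm38.p6, from 250 bases before to 50 after an annotated start, were found for 40 of the 46 members (42 windows). They were searched on both strands for 4 short sequences known from promoters of respiratory chain genes. These were AAGATGGCG, bound by YY1, and the NRF1 palindrome, which is GCGCA followed by its reverse complement TGCGC. The others were AAGGTCA, a half-site of oestrogen-related receptors, and CCGGAAG, bound by ETS factors such as GABP. None of the 4 holds another. AAGATGGCG occurred in 6 of 42 member windows (14.3%) and in 1.40% of 32851 windows of all genes. Each of the 6 lay after the start, between bases 11 and 44, on the coding strand. In 5 of the 6 genes (not Ndufaf8) its ATG is the annotated start codon. The 6 stretches of 30 bases are shown because the match sits at a like place in each, with the searched letters in capitals:
Ndufa9: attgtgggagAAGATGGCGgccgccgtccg
Ndufc1: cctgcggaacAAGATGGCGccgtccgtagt
Ndufs4: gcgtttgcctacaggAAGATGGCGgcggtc
Ndufs6: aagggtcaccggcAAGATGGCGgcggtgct
Ndufs7: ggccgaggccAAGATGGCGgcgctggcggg
Ndufaf8: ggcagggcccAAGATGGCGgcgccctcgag

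All 6 of those genes were lower in the space group, and their median log2 fold change was -0.511, beside -0.502 for the 34 matched members without the letters. The NRF1 palindrome occurred in 3 of 42 windows (7.14%) and in 0.971% of all windows. The 3 genes with it were Ndufa11 (bases -60 to -51), Ndufaf4 (-113 to -104) and Ndufaf5 (17 to 26), with a median log2 fold change of -0.322, against -0.506 for the other 37. AAGGTCA was in 7.14% of member windows and 4.72% of all windows, and CCGGAAG in 14.3% and 8.86%. The 3 genes with AAGGTCA had a median log2 fold change of -0.288, against -0.506 for the 37 without. For CCGGAAG the medians were -0.567 (6 genes) and -0.498 (34 genes). The 250 bases before the start had a median GC content of 58.2% in member windows and 52.4% in all windows. Whole stretches are printed for a gene lowered 1.76-fold (Ndufa11, chr17:56717512-56717761, plus strand), the gene lowered most (Ndufb5, chr3:32736813-32737062, plus strand) and the subunit that did not pass the test (Ndufb4, chr16:37654369-37654618, minus strand). Capitals mark the NRF1 letters in the first and the half-site in the third, and Ndufb5 held none of the 4 sequences in its window:
Ndufa11: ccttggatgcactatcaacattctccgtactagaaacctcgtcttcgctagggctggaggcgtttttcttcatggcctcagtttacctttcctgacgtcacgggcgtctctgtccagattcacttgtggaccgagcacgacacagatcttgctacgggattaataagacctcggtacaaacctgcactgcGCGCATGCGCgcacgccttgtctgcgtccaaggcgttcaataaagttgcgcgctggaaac
Ndufb5: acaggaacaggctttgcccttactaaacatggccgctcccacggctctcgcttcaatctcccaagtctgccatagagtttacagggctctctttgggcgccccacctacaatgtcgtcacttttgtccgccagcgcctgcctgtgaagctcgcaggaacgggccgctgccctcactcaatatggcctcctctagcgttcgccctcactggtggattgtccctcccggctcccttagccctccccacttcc
Ndufb4: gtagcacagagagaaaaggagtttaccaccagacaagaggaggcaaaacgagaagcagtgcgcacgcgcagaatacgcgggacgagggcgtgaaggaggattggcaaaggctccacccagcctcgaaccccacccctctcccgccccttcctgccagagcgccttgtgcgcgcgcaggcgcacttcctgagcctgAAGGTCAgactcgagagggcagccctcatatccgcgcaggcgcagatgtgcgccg
A match describes letters only and shows no binding.

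The 7 nuclear core subunits, which carry the redox centres and the ubiquinone site, were all lower, and none of the 7 had overlapping ranges. In the N module, Ndufs1, the large iron-sulfur subunit, was 371, 381 and 402 CPM (lowest, median and highest) in control libraries and 199, 267 and 318 CPM in space libraries. It was 1.51-fold lower (log2 fold change -0.60 ± 0.0707 SE, adjusted p = 4.44e-08), with space replicates 1 to 4 at 199 to 223 CPM and replicates 5 to 10 at 257 to 318 CPM. The gap between those 2 sets shows in the plot of single libraries, and without replicates 1 to 4 the fold was 1.36. Ndufv1, which binds NADH and FMN, went from 262, 279 and 296 to 169, 203 and 235 CPM (1.39-fold lower, adjusted p = 9.77e-08). Its iron-sulfur partner Ndufv2 went from 218, 231 and 242 to 137, 157 and 184 CPM (1.44-fold lower, adjusted p = 1.78e-09). Every space library was thus below every control library for the 3 N module core genes.

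In the Q module, Ndufs8, an iron-sulfur subunit, fell most among the core genes. Its control libraries were 62.6, 66.5 and 72.0 CPM and its space libraries 28.8, 38.4 and 48.0 CPM, which was 1.72-fold lower (-0.79 ± 0.0746 SE, adjusted p = 1.11e-09). Ndufs7, which holds the last cluster before ubiquinone, went from 116, 120 and 129 to 72.0, 84.8 and 96.4 CPM (1.44-fold lower, adjusted p = 1.13e-09). Ndufs3, an early scaffold of the Q module, was 92.7, 99.8 and 104 CPM in control and 63.1, 74.1 and 85.7 CPM in space libraries (1.35-fold lower, adjusted p = 1.14e-07). Every space library was below every control library for these 3 genes as well.

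**Figure D2:**
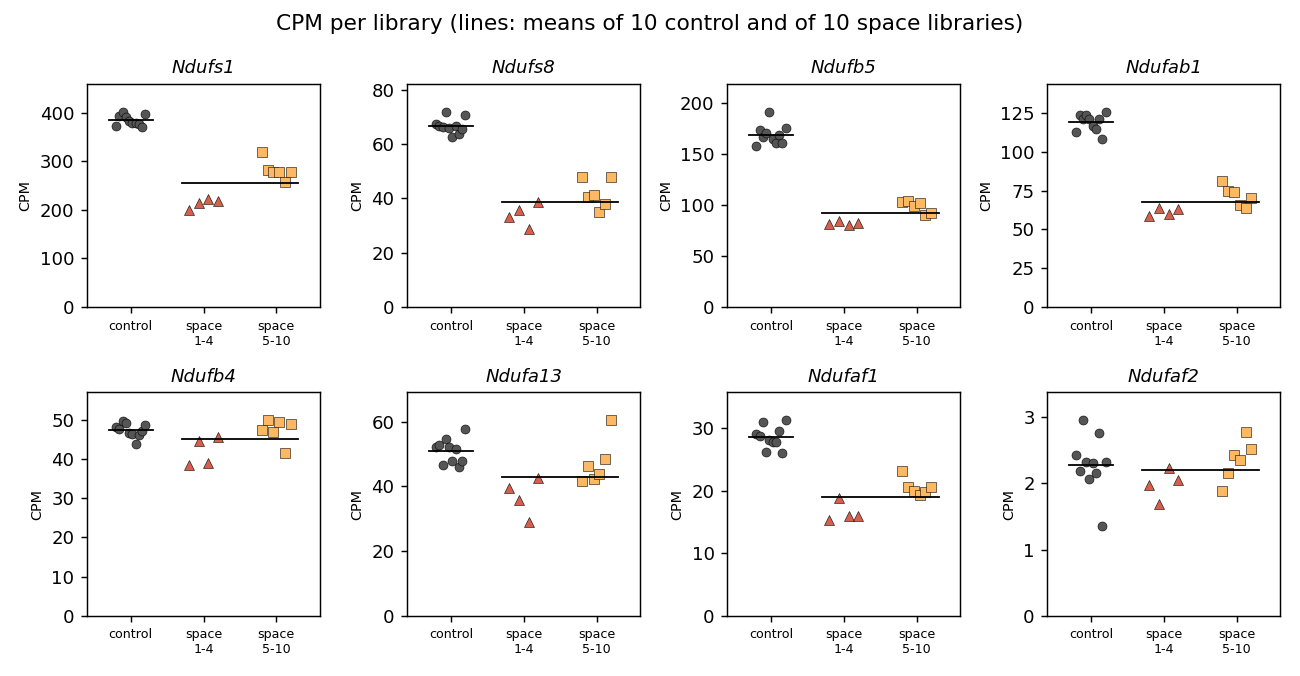
CPM of 8 genes in each library, with control libraries, space replicates 1 to 4 and space replicates 5 to 10 apart (vertical axis: CPM from 0; lines: means of the 10 control and of the 10 space libraries). Ndufs1, Ndufs8, Ndufb5, Ndufab1 and Ndufaf1 show no overlap between groups, whereas Ndufb4, Ndufa13 and Ndufaf2 do.

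Accessory subunits spanned the widest range, from 1.84-fold lower to 1.05-fold lower. The largest change of all 46 genes was that of Ndufb5, a subunit of the distal membrane arm. It was 158, 168 and 192 CPM in control and 80.1, 91.7 and 104 CPM in space libraries, or 1.84-fold lower (-0.88 ± 0.0532 SE, adjusted p = 9.53e-13). The groups were far apart, and the fold was 1.71 without space replicates 1 to 4. Ndufb3, of the same arm, went from 66.8, 73.0 and 77.4 to 29.9, 41.6 and 50.0 CPM (1.80-fold lower, adjusted p = 4.37e-11). The distal arm had 10 accessory genes here, of which 9 were lower, with a median log2 fold change of -0.518. Ndufb10 (1.60-fold), Ndufb6 (1.57-fold), Ndufb7 (1.45-fold) and Ndufb8 (1.41-fold) were also lower without overlap between groups, as were Ndufb11 (1.32-fold) and Ndufb9 (1.26-fold).

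The proximal membrane arm had 9 accessory genes, all lower, with a median of -0.553. Ndufa11, a membrane subunit at the contact with complex III, was 66.1, 73.5 and 82.5 CPM in control and 34.1, 41.3 and 49.3 CPM in space libraries (1.76-fold lower, adjusted p = 2.55e-11). Ndufa8, on the intermembrane-space side, went from 80.5, 89.4 and 97.7 to 48.5, 57.5 and 66.4 CPM (1.58-fold lower, adjusted p = 5.03e-11). Ndufa10, which has a nucleoside kinase-like fold, went from 203, 221 and 233 to 116, 146 and 168 CPM (1.56-fold lower, adjusted p = 2.40e-10). Ranges did not overlap for these 3, nor for Ndufc1 (1.58-fold), Ndufs5 (1.47-fold), Ndufc2 (1.44-fold), Ndufa3 (1.28-fold) and Ndufa1 (1.27-fold). Ndufa13, also known as GRIM-19, was the exception in the arm. Its control libraries were 45.9, 51.9 and 57.8 CPM and its space libraries 29.0, 42.5 and 60.4 CPM, and the highest value of all 20 was a space library. It was 1.19-fold lower (-0.25 ± 0.0936 SE, adjusted p = 0.0197), with 9 of 10 space libraries below the control mean. Without space replicates 1 to 4 it was 1.07-fold lower with an adjusted p of 0.22.

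Ndufab1, the mitochondrial acyl carrier protein, is found in both arms of complex I and also serves fatty acid synthesis, and was counted with neither arm. It was 108, 121 and 126 CPM in control and 58.8, 64.8 and 81.5 CPM in space libraries. The difference was 1.76-fold (log2 fold change -0.82 ± 0.0531 SE, adjusted p = 3.39e-12). Ndufa9, which binds NADPH beside the Q module, went from 159, 163 and 179 to 84.9, 105 and 117 CPM (1.62-fold lower, adjusted p = 2.32e-10). Both genes had groups well apart. The other accessory gene of the Q module, Ndufa5, overlapped between groups and was 1.18-fold lower (adjusted p = 0.00338, and 0.0787 without space replicates 1 to 4).

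All 7 accessory genes of the N module were lower, but with a median log2 fold change of only -0.250 and none past 1.5-fold. Ndufs6, a zinc-binding subunit, had the smallest p of them. It went from 57.7, 59.7 and 64.2 to 38.1, 42.0 and 48.7 CPM, with no overlap (1.41-fold lower, adjusted p = 2.11e-10). Ndufv3 (1.38-fold) and Ndufs4, needed late in assembly (1.29-fold), were also apart from control. Ndufa6 (1.19-fold), Ndufa12 (1.17-fold) and Ndufa7 (54.7 ± 3.39 to 47.5 ± 2.77 CPM, mean ± SD) were lower with overlap. Ndufa2 was 42.9, 46.9 and 53.1 CPM in control and 35.2, 42.8 and 49.5 CPM in space libraries, and 8 of 10 space libraries were below the control mean (1.10-fold lower, adjusted p = 0.0255). Without space replicates 1 to 4 its adjusted p was 0.394, and without control replicate 5 it was 0.0524. By arm, the 16 matrix arm subunits had a median of -0.448 and the 19 nuclear membrane arm subunits one of -0.539. Within each space library the membrane arm median minus the matrix arm median was between -0.224 and -0.009, and 7 of the 10 lay below the lowest control library (-0.062).

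Ndufb4 and Ndufb2, both of the distal membrane arm, were the weakest changes there. Ndufb4 was 43.8, 47.3 and 49.7 CPM in control and 38.5, 46.2 and 49.8 CPM in space libraries. It was 1.05-fold lower (-0.07 ± 0.0464 SE, adjusted p = 0.207), and 6 of 10 space libraries were below the control mean. The 95% interval of its difference in log2 CPM, -0.170 to 0.025, does not reach the median of the accessory subunits (-0.497). Its log2 fold change was 0.006 without space replicates 1 to 4 (adjusted p = 0.911). Ndufb2 was 12.2, 12.5 and 15.4 CPM in control and 7.24, 10.7 and 13.2 CPM in space libraries, with overlap, and was 1.22-fold lower (adjusted p = 0.0035, and 0.0664 without space replicates 1 to 4). Exons of Ndufb2 overlap those of Braf on the opposite strand. Braf held 22813 counts over all libraries against 7264 for Ndufb2, and no source used here says whether reads were counted by strand, so the Ndufb2 value is uncertain.

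**Figure D3:**
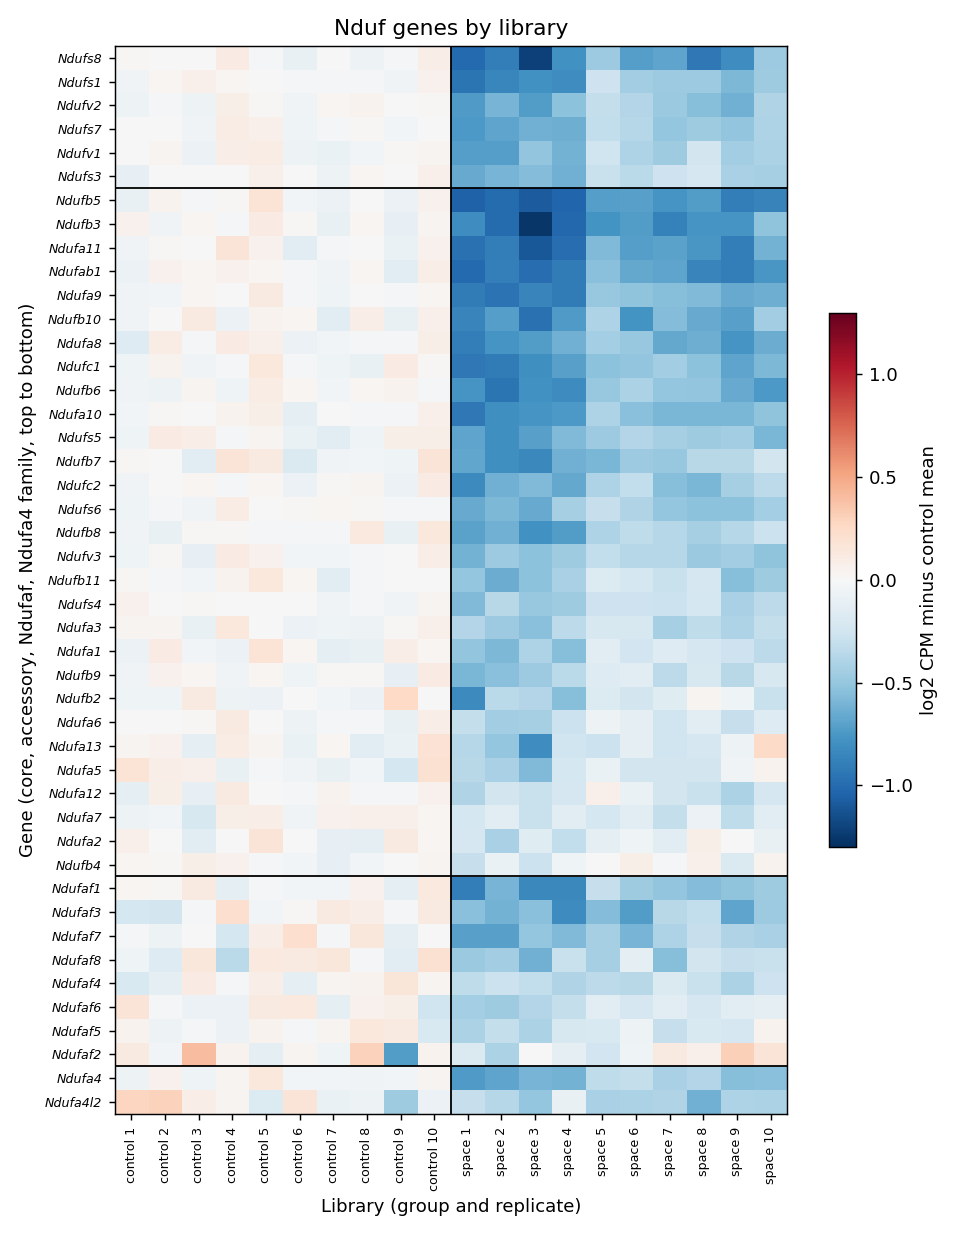
Log2 CPM minus the control mean for 45 of the 46 genes (top to bottom: core, accessory, Ndufaf, Ndufa4 and Ndufa4l2) in 10 control and 10 space libraries (blue: lower; red: higher). Space replicates 1 to 4 are the darkest blue in most genes, and the bottom genes of the accessory and Ndufaf blocks, Ndufb4 and Ndufaf2, are pale apart from Ndufaf2 in control replicate 9.

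The Ndufaf genes had the smallest median change of the 3 roles, and 3 of the 8 had no overlap between groups. A small median was not particular to them, since the 7 accessory genes of the N module had one of -0.250, against -0.354 for Ndufaf. Ndufaf1, which works with Acad9, Ecsit and Tmem126b on the membrane arm, was 26.1, 28.5 and 31.3 CPM in control and 15.3, 19.6 and 23.2 CPM in space libraries. It was 1.51-fold lower (-0.60 ± 0.0672 SE, adjusted p = 2.07e-08), and its groups did not overlap. Ndufaf7, a protein methyltransferase, went from 9.73, 11.3 and 13.2 to 6.96, 8.23 and 9.25 CPM (1.42-fold lower, adjusted p = 1.98e-07). Ndufaf3, a partner of Ndufaf4, went from 6.15, 7.26 and 8.45 to 4.13, 4.96 and 5.84 CPM (1.47-fold lower, adjusted p = 4.5e-07). Neither gene had overlapping ranges. The Ndufaf3 value is uncertain, because its exons overlap those of Impdh2 on the opposite strand, with 21489 counts against 3812.

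The other Ndufaf genes overlapped between groups. Ndufaf4 was 29.2, 34.2 and 37.3 CPM in control and 25.1, 26.6 and 29.3 CPM in space libraries (1.25-fold lower, adjusted p = 8.84e-07). Ndufaf8, the partner of Ndufaf5, went from 5.14, 6.75 and 7.51 to 4.23, 5.08 and 5.99 CPM (1.31-fold lower, adjusted p = 0.00014). All 10 space libraries were below the control mean for both. Ndufaf5, which hydroxylates Ndufs7, went from 11.6, 13.4 and 14.6 to 10.0, 11.5 and 13.7 CPM (1.17-fold lower, adjusted p = 0.00153, 9 of 10 libraries). Ndufaf6, needed early in assembly, went from 6.05, 7.34 and 8.10 to 5.26, 6.22 and 6.65 CPM (1.19-fold lower, adjusted p = 0.00163). Its adjusted p was 0.0644 without space replicates 1 to 4.

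Ndufaf2, a paralogue of Ndufa12 that leaves late in assembly, was the Ndufaf gene that did not pass. Its control libraries were 1.35, 2.31 and 2.95 CPM and its space libraries 1.69, 2.20 and 2.77 CPM, so the space values lay inside the control range. It was 1.04-fold lower (-0.06 ± 0.113 SE, adjusted p = 0.655). The 95% interval of its difference in log2 CPM was -0.274 to 0.201, which does not reach the Ndufaf median of -0.354. It had the lowest counts of the 46 genes, down to 23 in a library, and the depth limits what can be seen there.

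The contrast between roles was also read within libraries. The Ndufaf median minus the accessory median was -0.094 to 0.090 in control libraries and -0.005 to 0.219 in space libraries, with 6 of 10 space libraries above the highest control. The Ndufaf median minus the core median was above the highest control (0.098) in 8 of 10 space libraries. The separation was clearest in space replicates 1 to 4. There the medians were -0.452 to -0.352 (Ndufaf), -0.672 to -0.557 (accessory) and -0.735 to -0.625 (core). In space replicates 5 to 10 the ranges overlapped, at -0.344 to -0.263, -0.432 to -0.318 and -0.514 to -0.289. Core minus accessory was below the lowest control (-0.020) in 8 of 10 space libraries, with a median of -0.055. These are descriptions with no test.

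**Figure D4:**
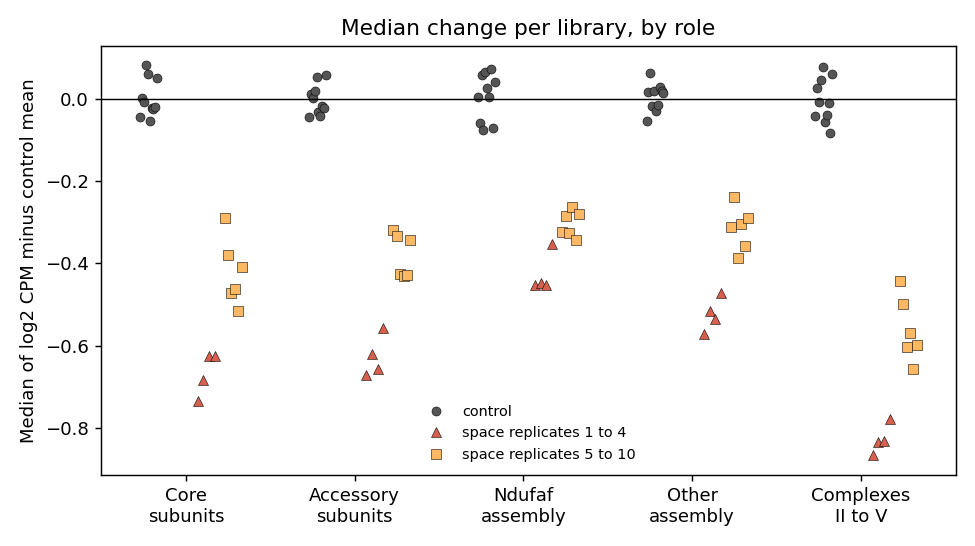
Median over the genes of a role of log2 CPM minus the control mean, for each library (circles: control; triangles: space replicates 1 to 4; squares: space replicates 5 to 10). Space libraries lie below all control libraries in each role, with Ndufaf medians of -0.452 to -0.263 and core medians of -0.735 to -0.289.

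Assembly factors whose symbols do not start with Nduf gave a like picture. Of 14 listed, 13 were tested and 12 were lower, with a median log2 fold change of -0.362. Without space replicates 1 to 4, 11 were lower. Of all tested genes, 28.9% were lower with all libraries and 26.1% without those replicates. Dmac2, a factor of the distal membrane arm, went from 33.4, 37.3 and 43.4 to 19.9, 22.5 and 26.9 CPM (1.64-fold lower, adjusted p = 2.43e-10). Timmdc1, a factor of the membrane arm (1.51-fold, adjusted p = 1.59e-09), Dmac1 (1.53-fold, adjusted p = 1e-08) and Tmem70, which also serves ATP synthase (1.41-fold, adjusted p = 3.81e-08), were lower without overlap. The partners of Ndufaf1 named above changed less than it. Acad9 was 1.06-fold lower (adjusted p = 0.0987, not past the threshold), Ecsit 1.11-fold (adjusted p = 0.00501) and Tmem126b 1.19-fold (adjusted p = 0.00202). This did not hold for all listed factors. Timmdc1 was as much lower as Ndufaf1 (1.51-fold), and Tmem186 was 1.27-fold lower (adjusted p = 1.34e-05). Ecsit had an adjusted p of 0.179 without space replicates 1 to 4.

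Ndufa4, named for complex I but assigned to complex IV, was 183, 187 and 211 CPM in control and 115, 131 and 154 CPM in space libraries. It was 1.43-fold lower with no overlap (-0.51 ± 0.0511 SE, adjusted p = 6.09e-09). Its paralogue Ndufa4l2, known as a gene induced by low oxygen, went from 4.23, 5.78 and 7.19 to 3.78, 4.41 and 5.48 CPM, with overlap (1.33-fold lower, adjusted p = 0.000243). Exons of Ndufa4l2 overlap those of Shmt2 on the opposite strand, which held 14361 counts against 3288, and its value is uncertain.

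The core subunits encoded in mitochondrial DNA, which form the proton-pumping membrane arm, varied widely between libraries of both groups. Of 7 mt-Nd genes, mt-Nd1 (7151 to 5345 CPM, adjusted p = 0.0185) and mt-Nd6 (730 to 453 CPM, adjusted p = 0.00944) were lower, and all 7 overlapped between groups. As a share, 2 of 7 is near the 28.9% of all tested genes that were lower. Counts of mt-Nd4l were few, at 0.819 CPM on average in control and 0.55 CPM in space libraries, with 1 count in its lowest library. Those of mt-Nd3 were also few (4.99 and 5.10 CPM), whereas mt-Nd4 averaged 4576 CPM in control libraries. Why so few reads were counted for mt-Nd4l and mt-Nd3 was not tested, and their values need not reflect transcript levels. Only mt-Nd6 stayed under 0.05 without space replicates 1 to 4 (adjusted p = 0.0245), and 4 of the 7 were lower without control replicate 9.

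Nuclear subunits of the other complexes had a larger median change than the Nduf genes. Of 41, 40 were lower, beside 28.9% of all tested genes, with a median log2 fold change of -0.656, or 1.58-fold. The Nduf genes include assembly factors, and the 36 core and accessory subunits alone had a median of -0.499. The medians were -0.795 for complex II (4 of 4 lower), -0.727 for complex III (9 of 9), -0.680 for complex IV (11 of 11) and -0.636 for complex V (16 of 17). The Nduf median minus the median of complexes II to V was 0.129 to 0.260 in space libraries and -0.025 to 0.059 in control libraries, so all 10 space libraries lay above all control libraries. It is a description with no test.

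Levels between genes were compared per length, as CPM per kilobase (kb) of transcript. In control libraries the median was 148 CPM per kb for core subunits, 96.8 for accessory subunits (28.3 to 162) and 7.56 for Ndufaf genes (3.37 to 19.7). In space libraries these medians were 98.1, 66.6 and 6.04 CPM per kb. With this length the Ndufaf genes lay below every subunit in both groups, although core and accessory genes overlapped. With the union of all annotated exons as length, the control medians were 70.2, 66.4 and 6.66 CPM per kb. The order of the 3 medians was kept, but core and accessory genes lay closer together. The separation of the Ndufaf genes was lost: Ndufb2 (2.29), Ndufb8 (8.22), Ndufb7 (8.85) and Ndufab1 (17.3) lay below the highest Ndufaf gene, Ndufaf1 (19.1 CPM per kb). The spread of subunit levels, as the SD of log2 CPM per kb, was 0.704 in control and 0.689 in space libraries. Over the 46 genes, the log2 fold change had a Spearman correlation of -0.26 with the log2 control level per kb (Pearson -0.32), where both axes share the control libraries.

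**Figure D5:**
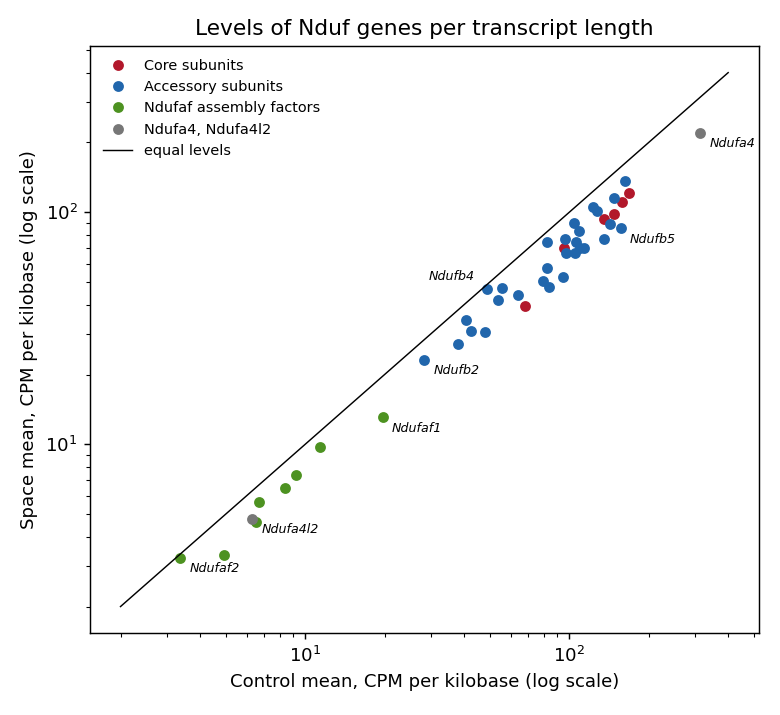
Mean CPM per kb of transcript in space against control libraries for 45 of the 46 genes, on log axes, by role (line: equal levels). Ndufaf genes and Ndufa4l2 lie at the lower left, subunits at the upper right, and Ndufa4 at the top with 314 in control and 220 in space libraries.

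The space libraries were also more spread. The median coefficient of variation of a member was 5.34% in control and 10.8% in space libraries, and 40 of 46 members (87.0%) varied more in the space group. Over all tested genes the medians were 12.8% and 14.3%, and 59.8% varied more in the space group. Within space replicates 5 to 10 the members' median was 6.83%. For 45 of the 46 genes the fall was smaller without space replicates 1 to 4, and their log2 fold changes with and without those libraries had a Spearman correlation of 0.97, with 6 space and 10 control libraries in common.

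Read totals were 17336017 to 43424464 per library. The 46 genes together took 0.376% to 0.418% of the counts in control and 0.277% to 0.334% in space libraries, and a member had 23 to 17025 counts in a library. Scaling factors were 0.931 to 1.04 in control, 1.05 to 1.16 in space replicates 1 to 4 and 0.946 to 1.01 in the others. No library pair was identical. Annotated pseudogene copies with at least 90% identity over 200 bases existed for 13 members, and held over 1% of the gene's counts only for Ndufs5 (3.29%). Stretches of that kind were also shared by 5 members with genes that are not pseudogenes, among them Ndufab1 (27 genes) and Ndufb5 (Mrpl47). The part of shared stretches in their values was not tested. Exons of 19 members overlapped another gene, and in all but Ndufb2, Ndufaf3 and Ndufa4l2 the member held more counts than each gene it overlapped.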

How the data were processed

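Per the labels' protocols, each soleus library started from 90 ng of total RNA and ribosomal RNA was removed. The authors deposited 1 table of read counts for each Ensembl gene, which were not normalized. Per the submitters' processing notes, MultiQC 1.15, Subread, featureCounts 1.5.1, edgeR and the build GRCm39 were used. Not given in the sources used here are the strand setting, the annotation used for counting and how reads with several matches were treated. Groups came from the sample titles, and no column was left out.

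Gene names and classes came from GENCODE M21 (GRCm38) by Ensembl identifier, which named 97.6% of counts. The counts were tested with edgeR 4.0.16 under R 4.3.3, using filterByExpr (minimum count 10, minimum total 15), TMM scaling, robust quasi-likelihood fits on all 20 libraries, and Benjamini-Hochberg adjustment over 16778 genes with a threshold of 0.05. The labels give no batch. CPM uses TMM-scaled library sizes, and log2 CPM a prior count of 2. The SE and the 95% interval are those of the difference in mean log2 CPM over libraries. The code of the test was checked on simulated counts with few changed genes. That setting is unlike these data, where 57.6% of tested genes passed, so it does not bear on error rates here. CPM per kb uses the shortest principal transcript of the best support level in M21. Promoter sequences are RefSeq's.

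The members and lists were chosen with earlier results of these data known. Values are given for the core, Ndufaf and Ndufa4 genes (1 gene that this rule takes is not reported here), the 8 accessory genes with the smallest and the 4 with the largest adjusted p, and the 4 other assembly factors with the smallest. Further genes were named after their values were seen. Coa1, the listed factor not tested, was not matched to the table by name. Alternatives were DESeq2 1.42.0 (its scaling and its test), upper-quartile factors, library size alone, limma-voom 3.58.1 with quality weights, other filters, no mitochondrial genes, a sample-number block, a fold of 1.2 and each library left out. The fit without space replicates 1 to 4 and the union exon length were chosen after seeing the data.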

Additional observations from a re-analysis of the deposited data

Results flagged for a closer look

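Values of 33 genes and the medians of 3 roles were examined in each group of 10 libraries, 72 sets in all. In 3 of the 72 an extreme library stood further from its neighbour, as a share of the whole range of log2 CPM, than Dixon's 95% value of 0.466. Chance gives about 1 such group in 20. For Ndufs6, control replicate 4 was the highest at 64.2 CPM (ratio 0.466). For Ndufa9, control replicate 5 was the highest at 179 CPM (ratio 0.512). For Ndufaf2, control replicate 9 was the lowest at 1.35 CPM (ratio 0.539). Leaving out any of these libraries changed the call of none of the 3 genes.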

How the results depend on the processing

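Of 1023 values (33 named genes under 31 alternatives), 17 lost the call and 4 changed sign; the others kept their direction and side of the threshold. The sign changes were in the 2 genes that had not passed: Ndufb4 at 0.008 (adjusted p = 0.887) and Ndufaf2 at 0.014 (adjusted p = 0.92) with library size alone, and 0.006 and 0.036 (adjusted p = 0.911 and 0.841) without space replicates 1 to 4. Of the 17, 8 arose against a fold of 1.2. Ndufa13 and Ndufa2 lost the call with upper-quartile factors (adjusted p = 0.065 and 0.171) and library size alone (0.0606 and 0.269). Library size alone moved the median of all genes to 0.104 and the Ndufaf median to -0.273, with 3756 genes lower and 5946 higher, and upper-quartile factors gave 4095 and 5840. Against a fold of 1.2, 3 Ndufaf genes, 7 other assembly factors and 1 mt-Nd gene were lower. Without space replicates 1 to 4, 1 mt-Nd gene was lower. With 1 library left out, 43 to 44 Nduf genes, 7 core, 27 to 28 accessory, 7 Ndufaf, 12 to 13 other assembly, 2 to 4 mt-Nd and 40 genes of complexes II to V were lower, and the medians were -0.546 to -0.500 (core), -0.513 to -0.467 (accessory) and -0.374 to -0.340 (Ndufaf). The cause was not tested. Same-numbered libraries deviated together in none of 10 pairs (correlation -0.132 to 0.0982), and none matched its own number best. A replicate block gave 44 Nduf genes lower, and 4816 lower with 4654 higher over all genes. The median control level per kb moved to 70.2 (core), 66.4 (accessory) and 6.66 (Ndufaf) with union exon lengths. Depth limits Ndufaf2 most.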
